A study of Homo sapiens with 36 samples.

Results

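Collagen alpha chain genes were described across 12 groups of RNA-seq libraries from 3 established human head and neck squamous cell carcinoma lines, Cal27, HN6 and HN4. The members were the 44 protein-coding genes whose symbol is COL followed by a type number, A and a chain number. They were picked by name alone and not by any measured value, out of 19951 protein-coding genes and 58735 genes in all. The gene family itself was chosen with earlier results of these data known. In the IL-8 experiment each line was given recombinant human IL-8 (a chemokine that signals through CXCR1 and CXCR2) at 100 ng/ml for 24 h, or was left untreated, to ask what IL-8 does where CXCR1 levels differ. In the plasmid experiment the 3 lines received, by transfection, a plasmid with ACLY (ATP citrate lyase, the enzyme that makes cytosolic acetyl-CoA) or with vector, to look for what lies downstream of ACLY. The 12 groups were thus Cal27, HN6 and HN4 with IL-8, the same lines untreated, the same lines labelled ACLY and the same lines labelled vector, with 3 libraries each and 36 in all. Cells of every group grew in medium with serum depleted of exosomes. Nothing in the labels says that the libraries of a group came from separate cultures, and the spread on which p-values rest may therefore be technical.

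Collagens are secreted or membrane-bound proteins of the extracellular matrix in which alpha chains wind into a triple helix, and the chains that pair decide which structure is built. In squamous epithelium, type XVII collagen ties the basal cell to the basement membrane at the hemidesmosome, type IV collagens form the basement membrane network, and type VII collagen anchors that network to the dermis or lamina propria. The fibrillar collagens, the fibril-associated collagens and the beaded filaments of type VI belong to the stroma beneath and are made largely by fibroblasts, although carcinoma cells can transcribe many of them.

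Library totals ran from 16570601 to 20232735 counts. A gene with no read in a library could still have a level of up to 0.148 to 0.181 CPM (3 counts of the total), a limit that covers counting error alone because the reads carry no molecular identifiers. ACLY, which checks the plasmid labels, averaged 1900.0 ± 39.6 CPM in Cal27 with the ACLY plasmid and 232 ± 12.5 CPM in Cal27 with vector, and 2218 ± 65.9 CPM and 268 ± 4.57 CPM in the same groups of HN6 (SD, n = 3 each). It went the other way in HN4, with 352 ± 30.6 CPM in libraries labelled ACLY against 1515 ± 10.5 CPM in libraries labelled vector, so these 2 groups are called HN4 labelled ACLY and HN4 labelled vector throughout and their direction is that of the labels. With IL-8, ACLY itself averaged 1169 ± 94 CPM in Cal27, 223 ± 2.35 CPM in HN6 and 1346 ± 17.6 CPM in HN4, against 235 ± 3.9, 277 ± 3.6 and 372 ± 5.83 CPM in the same lines untreated. Replicate 3 of Cal27 with IL-8 and replicate 3 of HN4 labelled ACLY stood apart from their groups by their share of mitochondrial counts, 1.06% and 2.15%, against 3.37% to 3.59% and 5.71% to 6.03% in the other libraries of those groups. The 22 protein-coding genes found in untreated HN4 alone among the untreated lines (at 10 CPM or more there and under 0.5 CPM in each untreated library of Cal27 and HN6) were also present in treated Cal27. Relative to untreated HN4, their median level in Cal27 was 0.268 ± 0.041 after IL-8 and 0.465 ± 0.012 after the ACLY plasmid. It was 0 in both control groups, where the low level in untreated Cal27 follows from how these genes were picked. Over the same libraries, the 34 genes found in untreated Cal27 alone stood at a median of 0.620 ± 0.046 with IL-8 and 0.385 ± 0.025 with the ACLY plasmid of their level in untreated Cal27, and the 17 genes found in untreated HN6 alone at 0 (SD, n = 3 each). Whether RNA of HN4 is present in the treated Cal27 libraries was not tested, nor what part it would have in the collagen results of Cal27. Every fold given below for treated Cal27 is read from libraries that carry these HN4-only genes.

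Of the 44 genes, 26 reached a mean of 1 CPM in at least 1 group and 17 reached 10 CPM. The other 18 stayed under 1 CPM in every group, and 2 of these, COL9A1 and COL22A1, had no read in any library. The genes under 1 CPM included COL1A2, the partner chain of COL1A1 in type I collagen, with 94 reads over all 36 libraries, and COL3A1, a fibrillar chain typical of fibroblasts, with 12 reads. The others with reads were COL24A1 with 279 reads, COL10A1 with 166, COL15A1 with 133, COL5A3 with 94, COL2A1 with 83, COL6A6 with 51, COL26A1 with 36, COL23A1 with 30, COL11A1 with 24, COL19A1 with 23, COL6A5 and COL20A1 with 21 each, COL25A1 with 6 and COL14A1 with 4. NT5DC1 overlaps COL10A1 and LMBRD1 overlaps COL19A1 on the opposite strand, so reads of those low genes may belong to their neighbours. Levels were set side by side between genes only per kilobase of the gene's summed exon length (CPM per kb). That length was 11071 bases for COL7A1 and 19293 for COL4A2. Orders and ratios in CPM per kb depend on it, and the lengths of the transcripts expressed were not known. On that scale COL17A1 was the highest collagen in untreated Cal27, at 244 ± 7.21 CPM per kb, followed by COL7A1 at 24.7 ± 1.91, with no overlap between the libraries of these genes. In untreated HN6, COL17A1 at 44.7 ± 1.14 and COL6A1 at 39.6 ± 4.56 CPM per kb overlapped, and COL7A1 followed at 24.6 ± 1.43, overlapping COL4A2 at 21.4 ± 2.25. Untreated HN4 was led by COL7A1, at 31.4 ± 2.73 CPM per kb, ahead of COL8A1 at 19.1 ± 0.676, and COL17A1 came eleventh at 4.55 ± 0.354 (mean ± SD, n = 3 each). All 44 genes together took 0.300% of counts in untreated Cal27, 0.20% in untreated HN6 and 0.162% in untreated HN4. COL17A1 alone made up 59.9%, 15.2% and 2.03% of those collagen counts. In bulk RNA, fewer cells with a transcript and less transcript per cell cannot be told apart.

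**Figure D1:**
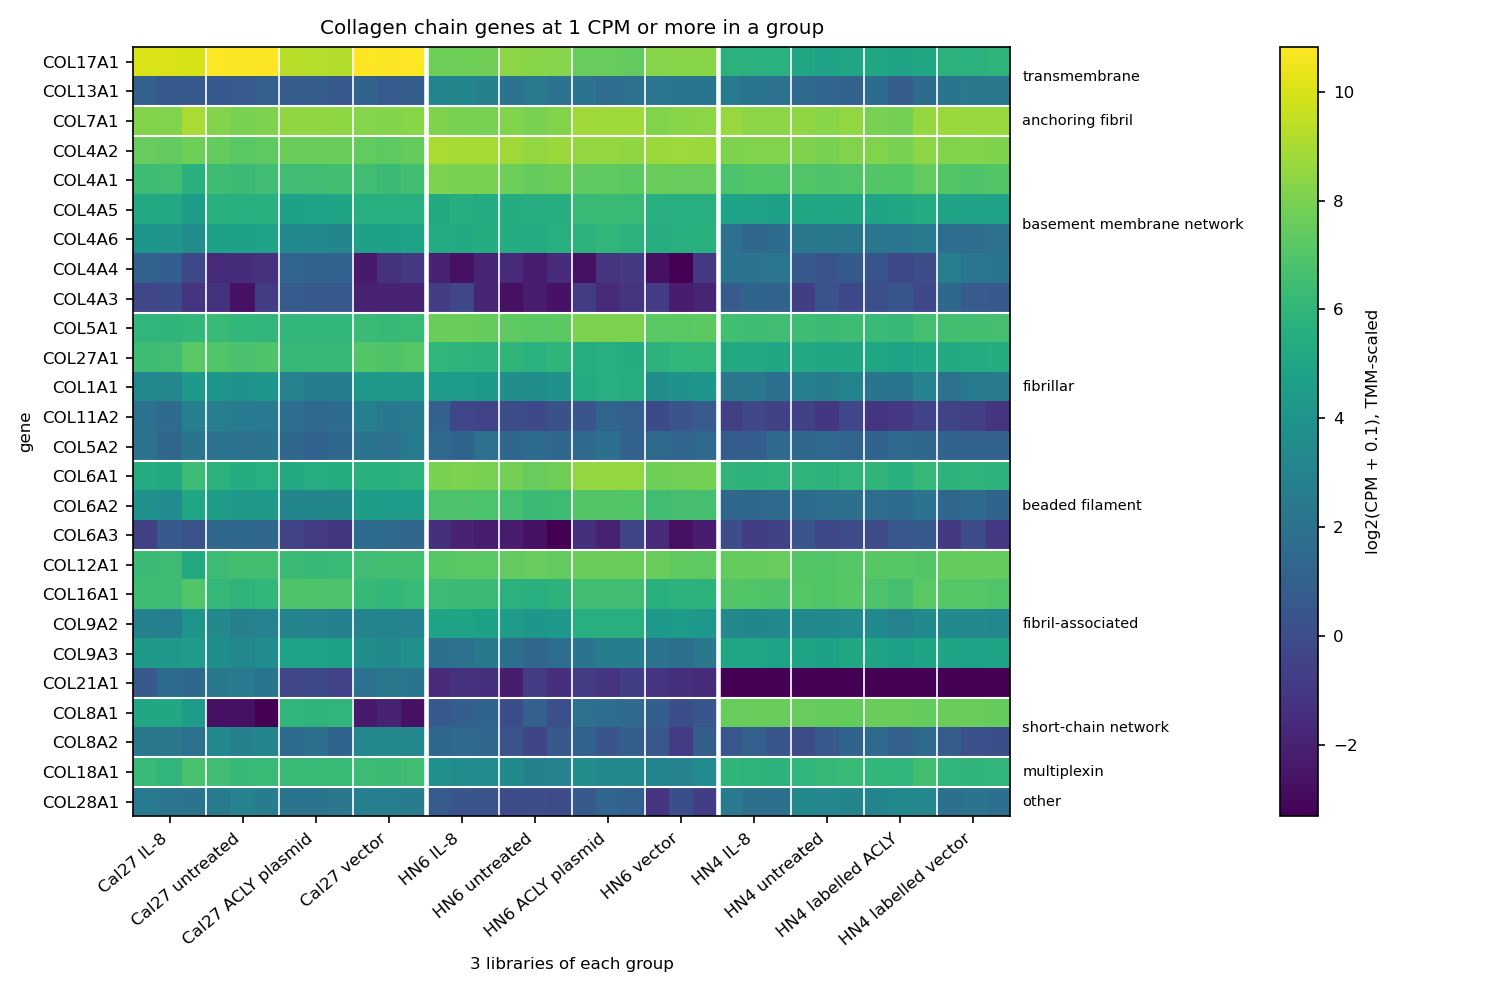
Heat map of the 26 collagen genes that reached 1 CPM in a group (rows, grouped by class) in all 36 libraries (columns, 3 per group); colour gives log2(CPM + 0.1) after TMM scaling. COL17A1 is brightest in Cal27, COL8A1 is dark in the Cal27 control groups and bright in HN4, and COL21A1 is at 0 in every HN4 library.

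Markers of other cell types were read from the same libraries. All 8 squamous markers had reads in every Cal27 and HN6 group, and their summed level was 3884 to 7037 CPM by group in Cal27, 1880 to 2360 CPM in HN6 and 791 to 886 CPM in HN4. KRT14, a basal keratin, had no read in untreated HN4 and HN4 labelled ACLY. In Cal27 the squamous sum was 5564 CPM with IL-8 and 6898 CPM untreated, and 3884 CPM with the ACLY plasmid and 7037 CPM with vector, with 5 of the 8 genes called lower and 0 higher with IL-8, and 8 lower with the ACLY plasmid. In HN6, edgeR called 0 with IL-8 (1 at an unadjusted p under 0.05), and 4 were higher and 2 lower with the ACLY plasmid. In HN4, 3 were higher with IL-8, and 2 higher and 5 lower in HN4 labelled ACLY. Of the 10 fibroblast markers, 2 to 5 had no read in a group. DCN had no read in 11 of the 12 groups and PDGFRA was at 0 in every Cal27 and HN6 group. By contrast, FBLN1 averaged 68.8 to 116.1 CPM by group. FAP averaged 31.5 CPM in untreated HN4, 0.0175 CPM in untreated Cal27, 5.81 CPM in Cal27 with IL-8 and 10.2 CPM with the ACLY plasmid. The summed fibroblast list was 79.7 to 97.4 CPM in Cal27 groups, 77.2 to 108 CPM in HN6 groups and 124 to 166 CPM in HN4 groups. The endothelial markers KDR and EMCN had no read in any Cal27 group, while CDH5 averaged 23.25 CPM and VWF 4.09 CPM in untreated Cal27. The endothelial list summed to 4.48 to 28.6 CPM and the leukocyte list to 14.4 to 37.5 CPM over the 12 groups, with the pan-leukocyte gene PTPRC at 0 in 6 groups. CSF1R, also of the leukocyte list, averaged 9.42 to 29.7 CPM by group. The cartilage and muscle list, whose chief member here was SOX9, summed to 21.4 to 142 CPM. In Cal27 it was 46.8 CPM with IL-8 and 21.4 CPM untreated, and 80.4 CPM with the ACLY plasmid and 23.8 CPM with vector. In HN6 with the ACLY plasmid the fibroblast sum was 108 CPM, the endothelial sum 22.2 CPM and the leukocyte sum 37.5 CPM, against 78.9, 11.2 and 17.8 CPM with vector, and all 4 tested fibroblast markers, all 4 endothelial markers and 3 of 4 leukocyte markers were called higher. In Cal27 with the ACLY plasmid the endothelial sum was 12.6 CPM and the leukocyte sum 15.8 CPM, against 28.5 and 28.5 CPM with vector, and 3 of 4 tested markers of each list were called lower. In Cal27 with IL-8 these sums were 17.9 and 17.3 CPM, against 28.6 and 25.9 CPM untreated, with 3 of 4 endothelial and 2 of 3 leukocyte markers lower. Of all genes, 22.7% were called higher and 16.7% lower in Cal27 with IL-8, and 34.2% and 29% with the ACLY plasmid. These shares were 7.61% and 7.81% in HN6 with IL-8, and 26.8% and 24.9% with the ACLY plasmid. They were 6.89% and 7.09% in HN4 with IL-8, and 18.9% and 19.1% in HN4 labelled ACLY. The part of these marker levels in the collagen results was not tested.

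The untreated lines differed in most of the collagen genes that could be tested. A low-count filter left 28 of the 44 genes in the IL-8 experiment (of 18398 genes tested) and 27 in the plasmid experiment (of 18556), and a gene was called at an adjusted p under 0.05 in edgeR's quasi-likelihood test. Between untreated Cal27 and untreated HN6, 22 of the 28 were called, 11 higher and 11 lower in Cal27, where 68.4% of all tested genes were called (35.3% higher, 33.1% lower). Between untreated Cal27 and untreated HN4, 24 were called, 12 in each direction (63.6% of all genes, 32.2% higher and 31.4% lower), and between untreated HN6 and untreated HN4, 22 were called, 14 higher and 8 lower in HN6 (67.2% of all genes, 32.4% higher and 34.7% lower). The vector groups of Cal27 and HN6 gave 23 called genes of 27, 12 higher and 11 lower in Cal27 (73.3% of all genes, 36.7% higher and 36.6% lower). The shares of collagen genes, 78.6%, 85.7%, 78.6% and 85.2%, lay above those of all genes. Both kinds of share are over genes that passed the same low-count filter, and no test of the difference in shares was made.

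COL17A1 encodes the transmembrane collagen of hemidesmosomes and was the collagen with the most counts in Cal27. The gene (ENSG00000065618) lies at chr10:104031286-104085957 on the minus strand (GRCh38, GENCODE 29). Its promoter window in RefSeq (GRCh38.p14), 250 bases before to 50 after the start, is shown because the gene's level separated the lines and was called in all 6 comparisons within a line:
COL17A1 (chr10:104085831-104086130, minus strand): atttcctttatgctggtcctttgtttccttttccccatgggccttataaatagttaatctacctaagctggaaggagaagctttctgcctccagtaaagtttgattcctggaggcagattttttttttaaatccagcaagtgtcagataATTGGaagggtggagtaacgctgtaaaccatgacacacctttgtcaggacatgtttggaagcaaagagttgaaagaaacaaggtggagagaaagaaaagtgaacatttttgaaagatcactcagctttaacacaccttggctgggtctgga
Capitals mark a match to CCAAT, searched on both strands and found here as its complement. The window also holds 1 TATAAA, has no GC box (GGGCGG) and no AP-1 match (TGANTCA), and is 40.7% G and C, against a median of 58.7% over 35116 RefSeq windows of this length. In all those windows, 34.6% held CCAAT, 45.0% GGGCGG, 7.7% TGANTCA and 11.5% TATAAA. These matches describe the letters and do not show binding.

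COL17A1 stood at 1779, 1678 and 1715 CPM in the 3 untreated Cal27 libraries, 325, 312 and 310.2 CPM in untreated HN6 and 34.1, 29.3 and 33 CPM in untreated HN4 (TMM-scaled CPM, the scale of all levels below unless another is named). The 3 lines did not overlap. Untreated Cal27 was above untreated HN6 by 2.45 ± 0.07 on the log2 scale (± SE; adjusted p = 2.51e-15) and untreated HN6 above untreated HN4 by 3.30 ± 0.07 (adjusted p = 1.75e-16). With IL-8, COL17A1 stood at 1047, 1057 and 985 CPM in Cal27, 210.0, 208 and 213 CPM in HN6 and 54.5, 52.7 and 52 CPM in HN4. It fell in Cal27 (log2 fold change -0.74 ± 0.06, adjusted p = 7.64e-08) and in HN6 (-0.59 ± 0.06, adjusted p = 1.01e-05), and rose in HN4 (0.72 ± 0.07, adjusted p = 2.78e-06), and the response differed among the lines (adjusted p = 2.79e-09 for the interaction). In Cal27 it stood at 631, 615 and 595 CPM with the ACLY plasmid, against 1811, 1714 and 1794 CPM with vector, and at 184, 183 and 169 CPM in HN6, against 306, 319 and 315 CPM with vector. Both falls passed the test (-1.53 ± 0.05, adjusted p = 2.92e-23, and -0.81 ± 0.05, adjusted p = 3.33e-15), and the fall was larger in Cal27 (difference -0.72 ± 0.07, adjusted p = 1.36e-10). HN4 labelled ACLY held 34, 30.5 and 36.3 CPM and HN4 labelled vector 54.5, 51.7 and 57.9 CPM (-0.70 ± 0.06, adjusted p = 1.88e-11). In each line the treated and control libraries of COL17A1 did not overlap.

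The collagen total of Cal27 was lower under both treatments, and much of the gap lay in COL17A1. Collagen genes took 0.230% of counts in Cal27 with IL-8 and 0.300% in untreated Cal27, and 0.186% with the ACLY plasmid and 0.316% with vector. Without COL17A1 the shares were 0.127% with IL-8 and 0.120% untreated, and 0.125% with the ACLY plasmid and 0.130% with vector. The IL-8 libraries held 0.121%, 0.115% and 0.143%, the highest being replicate 3, which stood apart, and the untreated ones 0.113% to 0.127%. COL17A1 made up 45.0% of collagen counts in Cal27 with IL-8 and 32.7% with the ACLY plasmid. In HN6 the total ran the other way, at 0.223% with IL-8 and 0.20% untreated, and 0.251% with the ACLY plasmid and 0.207% with vector. HN4 stood at 0.162% with IL-8 and 0.162% untreated, and 0.157% in HN4 labelled ACLY and 0.170% in HN4 labelled vector.

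COL13A1, the other transmembrane chain above 1 CPM, takes part in cell adhesion. It stood at 8.22, 8.99 and 7.12 CPM in HN6 with IL-8 and 4.13, 5.45 and 4.04 CPM in untreated HN6, and at 5.69, 4.46 and 4 CPM in HN4 with IL-8 and 2.8, 2.36 and 2.2 CPM in untreated HN4. It rose in both lines (0.84 ± 0.17, adjusted p = 0.00239 in HN6, and 0.94 ± 0.19, adjusted p = 0.00281 in HN4) with no overlap of libraries. In Cal27 it stayed at 1.5 to 2.01 CPM with IL-8 and 1.41 to 1.9 CPM untreated, and did not pass the test (adjusted p = 0.906). HN4 labelled ACLY was below HN4 labelled vector (-0.83 ± 0.20, adjusted p = 0.00139). COL23A1 and COL25A1, the remaining transmembrane chains, had 30 and 6 reads over all libraries. COL7A1, the chain of anchoring fibrils, was at 231 CPM or more in each of the 36 libraries and did not differ between untreated lines by the test. It rose in HN6 with the ACLY plasmid, at 448, 436 and 444 CPM against 280.3, 316 and 324 CPM with vector (0.53 ± 0.15, adjusted p = 0.00863). HN4 labelled ACLY held 245, 231 and 390.5 CPM and HN4 labelled vector 416, 398 and 396 CPM (-0.48 ± 0.15, adjusted p = 0.0203). Replicate 3 of HN4 labelled ACLY was the highest of its group, and without that library the difference was -0.77 ± 0.05, adjusted p = 4.32e-18. The call was lost without replicate 1 of HN4 labelled vector (adjusted p = 0.0592), without replicate 1 or 2 of HN4 labelled ACLY (0.0855 and 0.0738), and in a fit of these 6 libraries alone (0.154). COL7A1 in Cal27 with IL-8 was 290.0, 278 and 525 CPM, where replicate 3 again stood apart, against 293, 251 and 275 CPM untreated, with an adjusted p of 0.06.

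**Figure D2:**
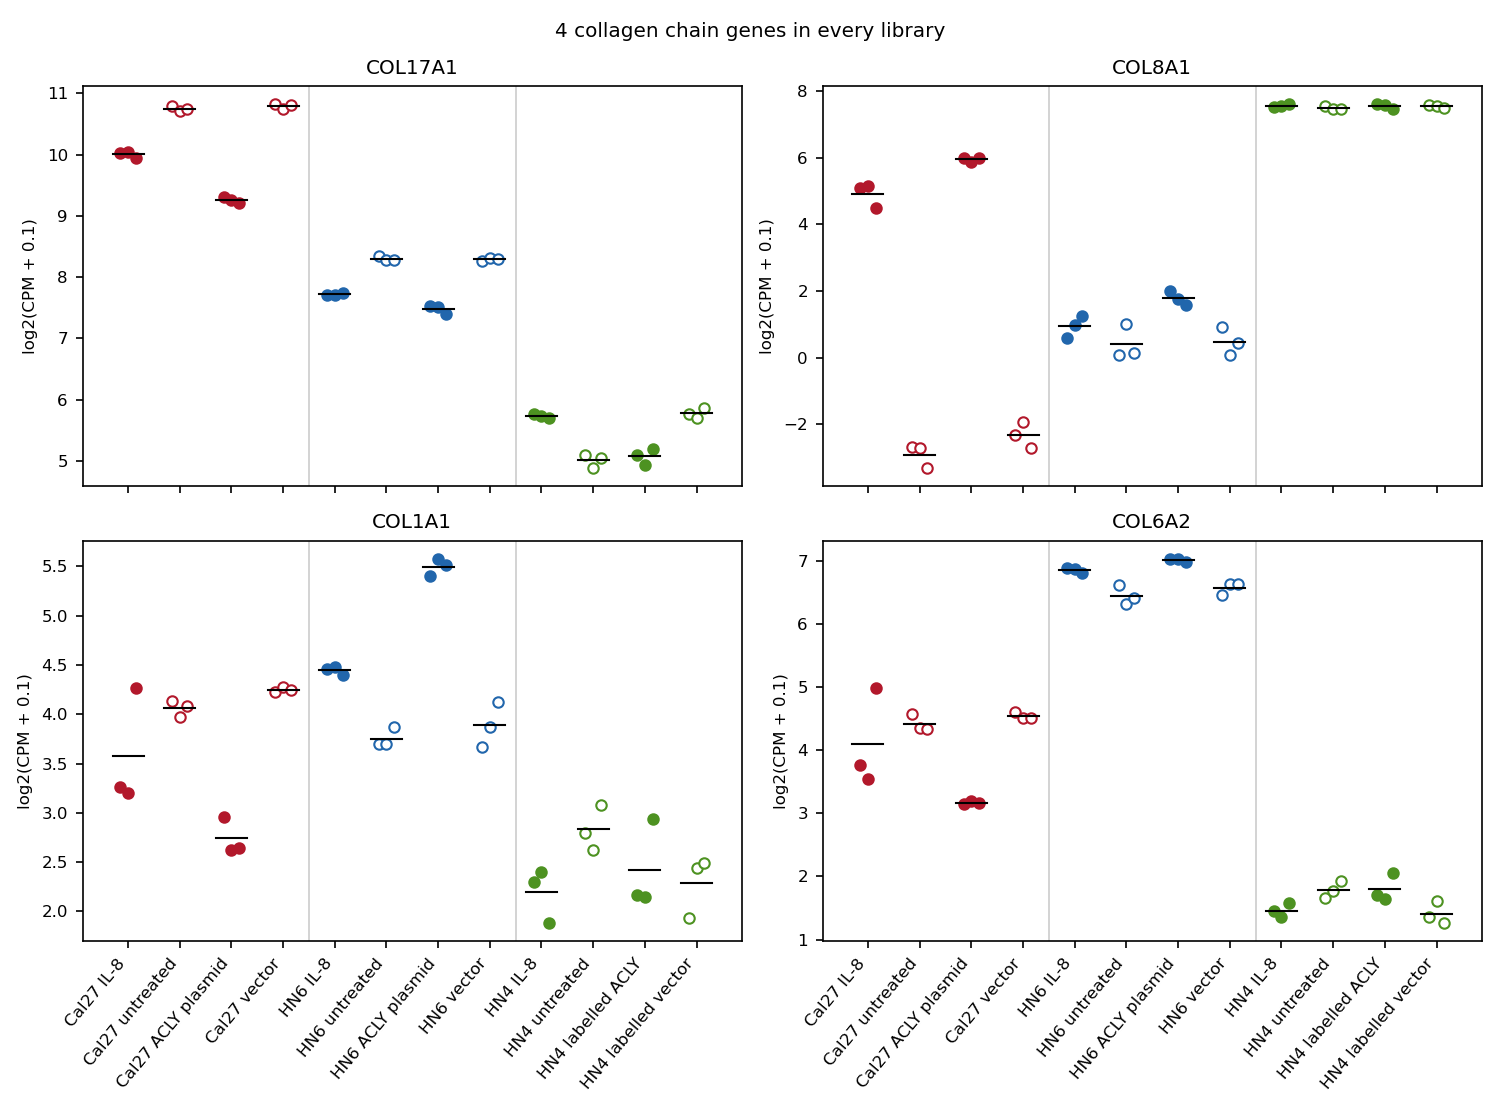
Level of COL17A1, COL8A1, COL1A1 and COL6A2 in each library, as log2(CPM + 0.1) on the y axis, for the 12 groups on the x axis; filled points are IL-8 or ACLY-labelled libraries, open points untreated or vector-labelled ones, black lines group means. COL17A1 is lower with treatment in Cal27 and HN6, COL8A1 is near 0 CPM in the Cal27 controls alone, and COL1A1 and COL6A2 move in opposite directions in Cal27 and HN6 with the ACLY plasmid.

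Under IL-8, 12 of the 28 tested collagen genes were called in Cal27, 5 higher and 7 lower, or 42.9%, close to the 39.4% of all tested genes (22.7% higher, 16.7% lower). In HN6, 9 were called, 8 higher and 1 lower, or 32.1% against 15.4% of all genes (7.61% higher, 7.81% lower). In HN4 6 were called, 4 higher and 2 lower, or 21.4% against 14% (6.89% higher, 7.09% lower). At a change of at least 2-fold, 5, 2 and 3 of the genes were called in Cal27, HN6 and HN4, where 9.89%, 2.54% and 2.27% of all genes were. The median log2 fold change of the tested collagen genes was -0.15 in Cal27, 0.34 in HN6 and 0.00014 in HN4, beside medians of 0.0042, 0.0022 and -0.0079 over all genes. All 18 libraries share 1 estimate of the spread in this fit, replicate 3 of Cal27 with IL-8 included. Without that library, 16 genes were called in Cal27 (5 higher, 11 lower), 14 in HN6 (12 higher, 2 lower) and 9 in HN4, where 41.7%, 32.7% and 30.3% of all genes were called in the same order of lines; the HN4 count is then near the background. In a fit of the 6 libraries of Cal27 with IL-8 and untreated Cal27 alone, 8 collagen genes and 15.6% of all genes were called. The response to IL-8 differed among lines for 14 of the 28 genes (40.2% of all genes), and between Cal27 and HN6 for 10 (30.3% of all genes), with the Cal27 response the lower one in 8.

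In the plasmid experiment, 22 of the 27 tested collagen genes were called in Cal27, 7 higher and 15 lower with the ACLY plasmid, or 81.5% against 63.2% of all genes (34.2% higher, 29% lower). In HN6, 17 were called, 13 higher and 4 lower, or 63.0% against 51.6% (26.8% higher, 24.9% lower). Between HN4 labelled ACLY and HN4 labelled vector 15 were called, 7 higher and 8 lower, or 55.6% against 38.1% (18.9% higher, 19.1% lower). Without replicate 3 of HN4 labelled ACLY that count was 10, with 2 higher and 8 lower, and COL24A1, COL4A3, COL4A5, COL4A6, COL6A2 and COL6A3 were no longer called. Of all genes, 37.4% were called without that library, so the 10 collagen genes lie near the background. At 2-fold or more, 12, 4 and 5 genes were called, where 23%, 12.6% and 6.85% of all genes were. The median log2 fold change of the tested collagen genes was -0.28 in Cal27 and 0.53 in HN6, beside 0.027 and 0.036 over all genes. The response differed among all lines as labelled for 24 genes (70.9% of all genes) and between Cal27 and HN6 for 21 (61.9% of all genes), in 16 of which the Cal27 response was the lower one.

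Type IV collagen chains build the basement membrane network, and their genes stand in head-to-head pairs that share a start region. COL4A1 and COL4A2 start 127 bases apart on chromosome 13, COL4A3 and COL4A4 419 bases apart on chromosome 2, and COL4A5 and COL4A6 380 bases apart on the X chromosome, by the RefSeq windows. The ratio of the partners' levels was similar in the untreated lines for COL4A1 and COL4A2 and differed for COL4A5 and COL4A6. One window of each pair is shown:
COL4A2 (chr13:110307034-110307333, plus strand): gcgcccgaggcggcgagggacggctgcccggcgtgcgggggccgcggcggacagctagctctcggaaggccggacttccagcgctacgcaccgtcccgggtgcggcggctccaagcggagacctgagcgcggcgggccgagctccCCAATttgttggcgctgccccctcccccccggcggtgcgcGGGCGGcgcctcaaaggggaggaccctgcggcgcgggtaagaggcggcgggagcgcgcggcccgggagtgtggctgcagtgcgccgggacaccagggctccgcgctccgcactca
COL4A3 (chr2:227164374-227164673, plus strand): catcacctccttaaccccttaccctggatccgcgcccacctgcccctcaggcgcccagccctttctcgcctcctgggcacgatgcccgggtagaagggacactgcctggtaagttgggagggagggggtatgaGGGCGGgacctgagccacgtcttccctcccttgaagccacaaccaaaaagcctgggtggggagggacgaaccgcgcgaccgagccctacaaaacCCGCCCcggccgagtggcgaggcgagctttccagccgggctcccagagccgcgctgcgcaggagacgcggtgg
COL4A5 (chrX:108439588-108439887, plus strand): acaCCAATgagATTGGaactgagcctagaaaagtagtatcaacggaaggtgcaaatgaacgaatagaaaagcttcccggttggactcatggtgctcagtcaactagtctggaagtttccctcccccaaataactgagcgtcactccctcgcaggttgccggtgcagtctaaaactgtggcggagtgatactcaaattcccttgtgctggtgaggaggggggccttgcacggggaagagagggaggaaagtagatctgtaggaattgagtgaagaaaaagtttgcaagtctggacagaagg
Capitals mark GGGCGG and CCAAT or their complements. The COL4A2 window holds 1 of each, the COL4A3 window 2 GC boxes and the COL4A5 window 2 CCAAT matches, none holds TGANTCA, and their G and C content is 77.7%, 67.7% and 49.3%. The COL4A1 and COL4A2 windows overlap by 226 bases, those of COL4A3 and COL4A4 by 82 and those of COL4A5 and COL4A6 by 121. RefSeq windows were at hand for 32 of the 44 genes.

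COL4A1 and COL4A2, the pair found in nearly all basement membranes, were highest in HN6. COL4A2 stood at 177, 149.8 and 161 CPM in untreated Cal27, 451, 365 and 422 CPM in untreated HN6 and 269.6, 249 and 283 CPM in untreated HN4, and no 2 lines overlapped. COL4A1 followed the same order, at 87.1, 78.4 and 88.5 CPM in untreated Cal27, 206, 180.0 and 200.4 CPM in untreated HN6 and 126, 122 and 128 CPM in untreated HN4. Untreated Cal27 was below untreated HN6 for both (COL4A2 -1.34 ± 0.09, adjusted p = 4.91e-10, and COL4A1 -1.21 ± 0.14, adjusted p = 5.54e-07). With IL-8, COL4A2 rose in HN6 (0.31 ± 0.09, adjusted p = 0.0283), a call lost when any 1 of 5 of the 6 HN6 libraries was left out (adjusted p up to 0.151), while the adjusted p was 0.00172 without replicate 3 of Cal27 with IL-8. With the ACLY plasmid COL4A2 differed in opposite directions in Cal27 (0.23 ± 0.06, adjusted p = 0.00222) and HN6 (-0.18 ± 0.06, adjusted p = 0.0138), by less than 1.5-fold in each line, and both calls were lost under library-size and upper-quartile scaling. COL4A1 was called lower in HN6 with the ACLY plasmid (-0.23 ± 0.07, adjusted p = 0.0125), a call lost without replicate 3 of the ACLY libraries (adjusted p = 0.0544), under library-size scaling (0.0946), under upper-quartile scaling (0.0655) and in the fit of all 36 libraries (0.119).

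COL4A1 and COL4A2 overlap on opposite strands, and reads of the shared stretch may be mixed, since the strand setting is not given. Per length, COL4A2 was at 1.47 to 2.09 times the level of COL4A1 in group means, and 11 of the 12 groups lay between 1.47 and 1.77. The exception was Cal27 with IL-8, where the libraries ran from 1.46 to 3.16 and replicate 3 was the highest, with COL4A1 at 87.3, 89.2 and 50.9 CPM in the 3 libraries. The COL4A6 to COL4A5 ratio, by contrast, differed between the lines. It was 0.701 ± 0.0205 in untreated Cal27, 1.26 ± 0.0723 in untreated HN6 and 0.186 ± 0.0186 in untreated HN4 (SD, n = 3), without overlap. With the ACLY plasmid it was 0.447 ± 0.0767 in Cal27, against 0.743 ± 0.0404 with vector, and 0.962 ± 0.0492 in HN6, against 1.26 ± 0.0563 with vector.

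**Figure D3:**
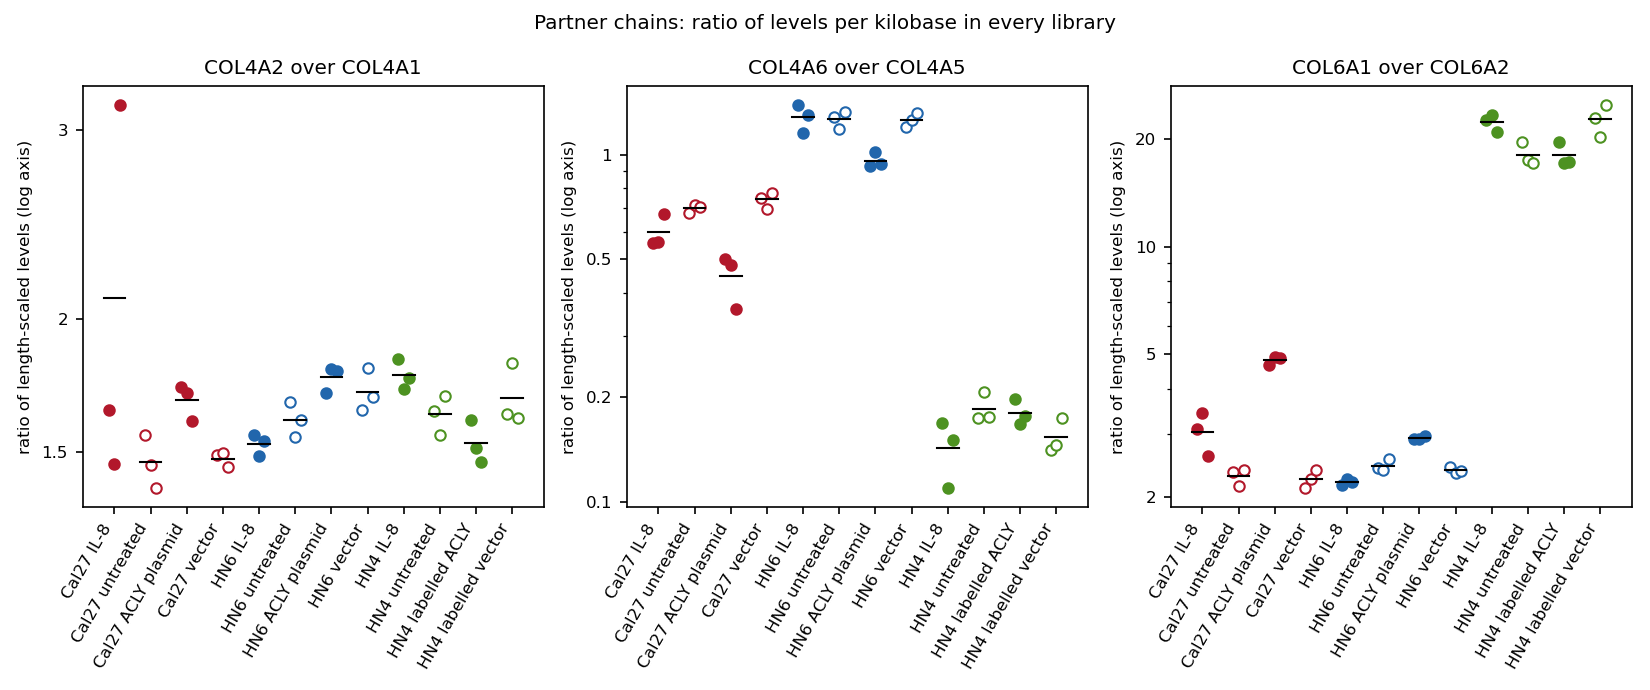
Ratio of partner chains per kilobase (y axis, log scale) in each library of the 12 groups (x axis); filled points are IL-8 or ACLY-labelled libraries and black lines are group means. Group means of COL4A2 over COL4A1 lie between 1.47 and 1.77 except in Cal27 with IL-8, while COL4A6 over COL4A5 and COL6A1 over COL6A2 separate HN4 from the other lines.

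COL4A5 and COL4A6, whose chains form a network typical of epithelial basement membranes, fell together in Cal27 and rose together in HN6 with the ACLY plasmid. COL4A6 stood at 10.8, 10.6 and 8.73 CPM in Cal27 with the ACLY plasmid and 27.7, 27 and 29.8 CPM with vector (-1.49 ± 0.10, adjusted p = 3.42e-15). COL4A5 stood at 27.5, 28 and 31 CPM and 47, 49.3 and 49 CPM in the same groups (-0.75 ± 0.08, adjusted p = 4.74e-10). In HN6 the ACLY plasmid libraries held 75, 78.4 and 72.8 CPM of COL4A5, against 47, 48.9 and 48.6 CPM with vector (0.65 ± 0.08, adjusted p = 5.69e-09), and COL4A6 rose by 0.26 ± 0.08, adjusted p = 0.00908. The COL4A6 call in HN6 was lost without replicate 2 of the ACLY libraries (adjusted p = 0.106) or replicate 1 of the vector libraries (0.0656). The Cal27 response was below the HN6 response for both (COL4A5 -1.39 ± 0.11, adjusted p = 2.95e-13, and COL4A6 -1.74 ± 0.13, adjusted p = 5.28e-14). With IL-8, COL4A6 fell in Cal27, at 17.2, 16.4 and 12.6 CPM against 27.1, 27.1 and 27.9 CPM untreated (-0.82 ± 0.12, adjusted p = 3.3e-05), and in HN4, at 3.92, 2.46 and 3.12 CPM against 4.83, 5.22 and 4.91 CPM (-0.66 ± 0.15, adjusted p = 0.00769; adjusted p = 0.0566 without replicate 2 of HN4 with IL-8). COL4A5 fell in Cal27 with IL-8 (-0.57 ± 0.13, adjusted p = 0.00213), with an adjusted p of 0.0864 in a fit of those 6 libraries alone.

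COL4A3 and COL4A4, chains best known from the kidney glomerulus, were low genes here, with no group mean above 5.10 CPM. COL4A4 stood at 2.17, 1.77 and 0.725 CPM in Cal27 with IL-8 and 0.216, 0.262 and 0.3 CPM in untreated Cal27, and at 2.35, 2.21 and 2.11 CPM with the ACLY plasmid and 0.0999, 0.32 and 0.421 CPM with vector. It rose in both (2.56 ± 0.39, adjusted p = 6.31e-05 with IL-8, and 2.97 ± 0.45, adjusted p = 5.82e-07 with the ACLY plasmid), in libraries whose HN4-only genes were at 0.268 and 0.465 of their HN4 level, a part that was not tested. In HN4 it stood at 4.28, 4.13 and 4.53 CPM with IL-8 and 1.42, 1.12 and 1.5 CPM untreated (1.67 ± 0.27, adjusted p = 0.000562), and at 1.15, 0.752 and 0.897 CPM in HN4 labelled ACLY and 6.41, 4.55 and 4.34 CPM in HN4 labelled vector (-2.44 ± 0.34, adjusted p = 7.09e-07). HN6 libraries held 0 to 0.408 CPM. COL4A3 rose in Cal27 with the ACLY plasmid, at 1.6, 1.51 and 1.43 CPM against 0.15, 0.16 and 0.158 CPM with vector (3.22 ± 0.48, adjusted p = 4.29e-07). It was also called higher with IL-8 in HN4 (1.34 ± 0.40, adjusted p = 0.0322), a call lost when any of 4 HN4 libraries was left out (adjusted p up to 0.147). In HN6 it had 25 reads with IL-8 and 4 reads untreated (2.48 ± 0.76, adjusted p = 0.0347).

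Among the fibrillar chains, COL1A1 moved in opposite directions in Cal27 and HN6 with the ACLY plasmid. It encodes the main chain of type I collagen and lies at chr17:50183289-50201632 on the minus strand. In Cal27 it stood at 7.64, 6.08 and 6.16 CPM with the ACLY plasmid, against 18.6, 19.3 and 18.9 CPM with vector, and at 42.1, 47.6 and 45.6 CPM in HN6, against 12.6, 14.5 and 17.3 CPM with vector. It fell 2.85-fold in Cal27 (log2 -1.51 ± 0.15, adjusted p = 1.89e-09) and rose 3.04-fold in HN6 (1.61 ± 0.14, adjusted p = 8.3e-11), a difference in response of -3.12 ± 0.21, adjusted p = 2.35e-13. With IL-8 it stood at 21.9, 22.3 and 21 CPM in HN6 and 12.9, 12.9 and 14.5 CPM in untreated HN6 without overlap (0.70 ± 0.20, adjusted p = 0.0278), but the call was lost when any 1 of the 6 HN6 libraries was left out (adjusted p up to 0.0955). Without replicate 3 of Cal27 with IL-8, which shares the estimate of the spread, the adjusted p was 1.24e-06. In Cal27 with IL-8 it was 9.5, 9.08 and 19.2 CPM, against 17.5, 15.6 and 16.9 CPM untreated, and was not called (-0.41 ± 0.21, adjusted p = 0.123). Without replicate 3, the library that stood apart, the difference was -0.84 ± 0.12, adjusted p = 7.55e-07. The partner chain COL1A2 had 43 reads in untreated Cal27 and none in untreated HN6 or HN4, at least 14.3-fold and 13.9-fold higher in Cal27 (against 3 counts over the group). It had 1 read in Cal27 with the ACLY plasmid and 26 with vector, a ratio of 26.8-fold lower with a counting interval of 4.41 to 1101 (exact, 95%). COL24A1, a minor fibrillar chain, was almost unread in the Cal27 controls. It had 9 reads in Cal27 with IL-8 and 1 untreated (ratio 9.30, counting interval 1.29 to 408), and 14 with the ACLY plasmid and 2 with vector (ratio 6.78, interval 1.56 to 61.5).

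COL5A1, whose chain helps start type I fibrils, was likewise highest in HN6 and rose there. It stood at 261, 267 and 258 CPM in HN6 with the ACLY plasmid and 145, 148 and 153 CPM with vector (0.82 ± 0.07, adjusted p = 4.51e-11), and at 199.9, 203 and 181 CPM with IL-8 and 160.1, 145 and 155 CPM untreated (0.34 ± 0.08, adjusted p = 0.00549). In Cal27 the ACLY plasmid libraries were slightly lower (-0.22 ± 0.07, adjusted p = 0.0123; 0.0574 without replicate 1 of the vector libraries), and the responses differed (-1.04 ± 0.10, adjusted p = 5.16e-10). COL5A2, the partner chain, stayed under 6 CPM in all libraries, and per length COL5A1 was at 11.2 ± 1.27 times COL5A2 in untreated Cal27, 39.1 ± 6.88 times in untreated HN6 and 22.4 ± 2.78 times in untreated HN4. COL5A2 fell in Cal27 with the ACLY plasmid (-0.93 ± 0.21, adjusted p = 0.000196). COL27A1, a fibrillar chain of cartilage and other tissues, was highest in Cal27, at 125, 108 and 123 CPM untreated, with 52.8 to 62 CPM in untreated HN6 and 34.6 to 36.5 CPM in untreated HN4. It was lower with the ACLY plasmid in Cal27 (68.1, 71.1 and 72.5 CPM against 131, 121 and 135 CPM, -0.87 ± 0.07, adjusted p = 2.62e-13) and in HN6 (-0.45 ± 0.07, adjusted p = 1.93e-06). COL11A2, a minor fibril chain of cartilage, stood at 6.6, 5.35 and 5.35 CPM in untreated Cal27, 0.95, 0.787 and 1.05 CPM in untreated HN6 and 0.559, 0.393 and 0.694 CPM in untreated HN4, and fell with the ACLY plasmid in Cal27 (-0.97 ± 0.22, adjusted p = 0.000267).

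The type VI chains, which form beaded filaments, set HN6 apart. COL6A1 stood at 55.1, 43.3 and 47.3 CPM in untreated Cal27, 235, 186 and 214 CPM in untreated HN6 and 59.4, 57.3 and 62.7 CPM in untreated HN4. COL6A2 stood at 23.6, 20.4 and 20.1 CPM in untreated Cal27, 98.3, 79.1 and 84.5 CPM in untreated HN6 and 3.05, 3.31 and 3.7 CPM in untreated HN4, with no overlap between lines. Untreated HN6 was above untreated HN4 by 4.70 ± 0.29 on the log2 scale for COL6A2 (adjusted p = 9.81e-11) and by 1.82 ± 0.19 for COL6A1 (adjusted p = 1.59e-07). Per length, COL6A1 was therefore at 2.29 ± 0.127 times COL6A2 in untreated Cal27, 2.45 ± 0.098 times in untreated HN6 and 18.1 ± 1.37 times in untreated HN4. COL6A2 fell in Cal27 with the ACLY plasmid, at 8.77, 9.05 and 8.9 CPM against 24.3, 22.6 and 22.8 CPM with vector (-1.38 ± 0.09, adjusted p = 1.07e-15), and rose in HN6, at 130.3, 130.3 and 127 CPM against 88.1, 99.1 and 99 CPM (0.44 ± 0.07, adjusted p = 7.07e-07). COL6A1 rose in HN6 (375, 376 and 371 CPM against 212, 229 and 232 CPM, 0.74 ± 0.06, adjusted p = 6.22e-12) and was slightly lower in Cal27 (-0.28 ± 0.07, adjusted p = 0.000929; 0.132 in the fit of all 36 libraries). The ratio of the chains in Cal27 was 4.82 ± 0.132 with the ACLY plasmid and 2.24 ± 0.127 with vector. In Cal27 with IL-8, COL6A2 was 13.5, 11.5 and 31.7 CPM, against 23.6, 20.4 and 20.1 CPM untreated, and the call again turned on replicate 3: -0.18 ± 0.24, adjusted p = 0.569 with it and -0.77 ± 0.10, adjusted p = 1.24e-07 without it. For COL6A1 the fitted change was 0.15 ± 0.19, adjusted p = 0.55 with that library and -0.27 ± 0.09, adjusted p = 0.0216 without it.

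COL6A3, the third chain of the classical type VI trimer, was scarce by comparison. Its group means reached 2.78 CPM in Cal27 with vector, and untreated HN6 had 3 reads in all, against 143 in untreated Cal27 (47.4-fold higher in Cal27, counting interval 15.9 to 233). In Cal27 it fell with IL-8, at 0.543, 1.5 and 1.15 CPM against 2.43, 2.57 and 2.45 CPM untreated (-1.22 ± 0.32, adjusted p = 0.00582), and with the ACLY plasmid, at 0.641, 0.452 and 0.399 CPM against 3.05, 2.88 and 2.42 CPM with vector (-2.47 ± 0.38, adjusted p = 7.24e-07). HN4 labelled ACLY was called above HN4 labelled vector for COL6A3 (1.17 ± 0.41, adjusted p = 0.0231) and COL6A2 (0.41 ± 0.15, adjusted p = 0.031), and without replicate 3 of HN4 labelled ACLY neither was called (0.99 ± 0.46, adjusted p = 0.0863, and 0.27 ± 0.18, adjusted p = 0.267).

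Of the fibril-associated chains, which decorate fibrils or link them to other matrix, COL16A1 rose in Cal27 and HN6 under both treatments. With IL-8 it stood at 87.1, 84.4 and 125 CPM in Cal27, against 68.5, 58 and 64.7 CPM untreated (0.63 ± 0.12, adjusted p = 0.000564), and at 81.4, 79.4 and 80.1 CPM in HN6, against 55.1, 46.6 and 56 CPM untreated (0.61 ± 0.12, adjusted p = 0.00239). In Cal27 it stood at 121, 119.5 and 116 CPM with the ACLY plasmid, against 71.4, 65.6 and 75.1 CPM with vector (0.75 ± 0.09, adjusted p = 7.02e-07), and at 87.8, 89.4 and 88 CPM in HN6, against 51.1, 56.9 and 56.9 CPM with vector (0.69 ± 0.10, adjusted p = 4.85e-06). HN4 held 129 to 143 CPM untreated, above both other lines untreated, and its treated and control libraries overlapped in both experiments. In the labelled groups the overlap came from replicate 3 of HN4 labelled ACLY (115, 102 and 149.6 CPM, against 125 to 138 CPM in HN4 labelled vector), and without it HN4 labelled ACLY was lower (-0.29 ± 0.06, adjusted p = 6.64e-05). The Cal27 rise with IL-8 had an adjusted p of 0.0533 in a fit of its 6 libraries alone. COL12A1, found in tissues under tension, was 81.5, 92.5 and 91.4 CPM in untreated Cal27, 171, 186 and 169 CPM in untreated HN6 and 133, 128 and 134 CPM in untreated HN4. Its called changes were small: -0.28 ± 0.06, adjusted p = 0.000175 in Cal27 with the ACLY plasmid (0.112 in the fit of all 36 libraries), 0.20 ± 0.06, adjusted p = 0.00473 in HN6 with it (0.0694 without replicate 3 of the vector libraries and 0.269 in the fit of all 36) and -0.40 ± 0.06, adjusted p = 1.18e-06 in HN4 labelled ACLY.

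COL9A2 and COL9A3, type IX chains known from cartilage, followed different lines. COL9A2 was highest in HN6 and rose there with the ACLY plasmid, at 48.1, 46.4 and 47.4 CPM against 18.5, 22.6 and 18.2 CPM with vector (1.26 ± 0.10, adjusted p = 1.21e-12), while Cal27 held 6.9 to 8.61 CPM with the ACLY plasmid and 7.57 to 8.22 CPM with vector (adjusted p = 0.828). COL9A3 was highest in HN4 and rose in Cal27 under both treatments. It stood at 19.8, 19.5 and 22.7 CPM in Cal27 with IL-8, against 13, 9.55 and 12.2 CPM untreated (0.83 ± 0.15, adjusted p = 0.000295), and at 28.1, 29.8 and 25.9 CPM with the ACLY plasmid, against 12.8, 10.4 and 13.7 CPM with vector (1.18 ± 0.11, adjusted p = 3.11e-11). HN4-only genes stood at 0.268 with IL-8 and 0.465 with the ACLY plasmid of their HN4 level in the same Cal27 libraries, and their part was not tested. TCFL5 overlaps COL9A3 on the opposite strand and reached 57.0 CPM, and reads of the 2 genes may be mixed, since the sources used here do not give the strand setting. COL21A1, a chain of vessel walls and other tissues, had no read in any HN4 library. It stood at 4.98, 5.35 and 4.5 CPM in untreated Cal27, at least 91.8-fold above untreated HN4 (3 counts over the group), and fell in Cal27 to 1.47, 3.12 and 2.66 CPM with IL-8 (-1.03 ± 0.26, adjusted p = 0.00729). It was 0.695, 0.804 and 0.627 CPM with the ACLY plasmid, against 3.9, 4.91 and 4.47 CPM with vector (-2.63 ± 0.30, adjusted p = 8.06e-09).

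COL8A1, a chain of the hexagonal network under corneal and vascular endothelium, gave the widest contrast between lines. It lies at chr3:99638475-99799226 on the plus strand. Untreated HN4 held 188, 177 and 176 CPM, untreated HN6 0.95, 1.91 and 0.996 CPM and untreated Cal27 0.0541, 0.0525 and 0 CPM, the last from 2 reads in all. Set against 9885 reads in untreated HN4, untreated Cal27 was 5095-fold lower, with a counting interval of 1410.0 to 42073 (exact, 95%). Cal27 with IL-8 held 33.9, 35.5 and 22.4 CPM, or 1656 reads, 856-fold above untreated Cal27 (counting interval 237 to 7073; adjusted p = 2.25e-12). Cal27 with the ACLY plasmid held 63.8, 57.8 and 63.9 CPM, against 0.0999, 0.16 and 0.0526 CPM with vector (9.12 ± 0.17, adjusted p = 1.21e-30). Beside this, HN4-only genes in these libraries were at 0.268 with IL-8 and 0.465 with the ACLY plasmid of their HN4 level. They were at 0 in Cal27 with vector, while their low level in untreated Cal27 follows from how they were picked. Their part in the COL8A1 result was not tested. All 6 treated Cal27 libraries were above all HN6 libraries and below all HN4 libraries. In HN6 the gene rose with the ACLY plasmid, at 3.92, 3.27 and 2.91 CPM against 1.78, 0.961 and 1.26 CPM with vector (1.33 ± 0.18, adjusted p = 1.83e-07). All 12 HN4 libraries lay between 176 and 195 CPM.

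COL8A2, the partner chain, took another course. It was highest in Cal27, at 9.63, 7.08 and 8.85 CPM untreated, and fell there with IL-8 to 4.94, 4.78 and 3.75 CPM (-0.92 ± 0.22, adjusted p = 0.00384). It stood at 2.94, 3.62 and 2.28 CPM with the ACLY plasmid, against 9.35, 10.0 and 9.1 CPM with vector (-1.68 ± 0.23, adjusted p = 1.57e-07). In HN6 it rose with IL-8, at 2.54, 2.73 and 2.41 CPM against 1.17, 0.674 and 1.47 CPM untreated (1.21 ± 0.30, adjusted p = 0.0112), and the IL-8 response differed among lines (adjusted p = 0.000935). Without replicate 2 of untreated HN6 the rise in HN6 had an adjusted p of 0.0706. HN4 labelled ACLY held 2.83, 1.91 and 2.92 CPM and HN4 labelled vector 1.68, 1.06 and 0.97 CPM (1.05 ± 0.31, adjusted p = 0.00646).

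COL18A1, the basement membrane collagen from which endostatin is cut, was low in HN6. It stood at 87.9, 70.8 and 75.1 CPM in untreated Cal27, 10.4, 7.19 and 7.74 CPM in untreated HN6 and 63.4, 68.9 and 75.9 CPM in untreated HN4, with untreated Cal27 above untreated HN6 by 3.21 ± 0.18 on the log2 scale (adjusted p = 2.48e-11). It was called higher in HN6 with IL-8 (0.59 ± 0.18, adjusted p = 0.0348), a call lost when any 1 of 5 of the 6 HN6 libraries was left out (adjusted p up to 0.151), while the adjusted p was 0.00553 without replicate 3 of Cal27 with IL-8. SLC19A1 overlaps COL18A1 on the opposite strand and reached 70.9 CPM. COL28A1, a chain with von Willebrand domains known from nerve, was low but called in all 3 lines. HN4 with IL-8 held 5.87, 3.57 and 3.65 CPM and untreated HN4 10.2, 9.32 and 9.07 CPM (-1.13 ± 0.17, adjusted p = 0.000308), while HN4 labelled ACLY held 8.19, 10.4 and 9.36 CPM and HN4 labelled vector 3.6, 4.2 and 3.52 CPM (1.30 ± 0.18, adjusted p = 2.74e-07). It fell in Cal27 with the ACLY plasmid (4.33, 4.32 and 4.79 CPM against 6.9, 6.89 and 6.15 CPM, -0.57 ± 0.17, adjusted p = 0.0048) and rose in HN6 (1.44, 2.38 and 1.99 CPM against 0.344, 0.961 and 0.514 CPM, 1.67 ± 0.29, adjusted p = 1.02e-05).

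The HN4 groups of the experiments were also set side by side. For each of the 6 collagen genes called in HN4 with IL-8, the labelled HN4 groups differed with the opposite sign: COL17A1 (0.72 with IL-8 and -0.70 in HN4 labelled ACLY), COL13A1 (0.94 and -0.83), COL4A4 (1.67 and -2.44), COL4A3 (1.34 and -0.90), COL28A1 (-1.13 and 1.30) and COL4A6 (-0.66 and 0.50). All 12 of these differences were called. Without replicate 3 of HN4 labelled ACLY, COL4A6 (0.39 ± 0.16, adjusted p = 0.0583) and COL4A3 (-0.72 ± 0.39, adjusted p = 0.148) were not called in the labelled groups, and the COL4A3 call there was also lost under 6 other settings and on leaving out 5 other libraries (adjusted p up to 0.24). When all 36 libraries were fitted together, edgeR called 0 of 28 collagen genes in HN4 with IL-8 against HN4 labelled vector, with 0 at an unadjusted p under 0.05, where 0.0879% of all genes were called. Between HN4 labelled ACLY and untreated HN4 it called 0 of 28, with 1 at an unadjusted p under 0.05, COL8A2, where 0.894% of all genes were called. The vector groups against the untreated groups gave 0 of 28 calls and 0% of all genes called in Cal27 and in HN6, with 1 gene at an unadjusted p under 0.05 in each, COL5A1 in Cal27 and COL9A3 in HN6. A p that misses the threshold does not show that levels were equal, and in these comparisons the experiment and the treatment cannot be told apart.

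In Cal27, most called collagen changes ran towards the level of HN4, as did most called changes of all genes. Taking the level of HN4 from its untreated libraries and the level of Cal27 from the control group of the other experiment, so that no Cal27 control was used on both sides, 10 of the 11 genes called with IL-8 at 1 CPM or more changed towards HN4. For the ACLY plasmid it was 16 of 20. Over all called genes the shares were 88.4% and 86.0%, and the difference from the collagen counts was not tested. Towards the level of HN6, 7 of 11 and 12 of 20 changed, and 73.5% and 72.4% of all called genes did. The exceptions with the ACLY plasmid were COL12A1, COL6A1, COL5A1 and COL28A1, and with IL-8 COL28A1.

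On a scale on which the Cal27 control of the other experiment is 0 and untreated HN4 is 1 (CPM of library totals), COL8A1 stood at 0.191, 0.199 and 0.113 in the 3 libraries of Cal27 with IL-8 and at 0.341, 0.309 and 0.347 in those with the ACLY plasmid. COL17A1 stood at 0.425, 0.422 and 0.514 with IL-8 and at 0.665, 0.675 and 0.681 with the ACLY plasmid. COL9A3 stood at 0.396, 0.378 and 0.438 with IL-8 and at 0.787, 0.868 and 0.697 with the ACLY plasmid. The libraries of the ACLY plasmid were farther along this scale than those of IL-8 for each of these genes. Beside these, the HN4-only genes were at 0.268 ± 0.041 of their HN4 level with IL-8 and at 0.465 ± 0.012 with the ACLY plasmid. Several called genes did not lie between 0 and 1. With the ACLY plasmid, COL4A4 passed the level of untreated HN4, at 1.85, 1.72 and 1.66. COL6A3 did, at 1.2, 1.32 and 1.34, and COL4A5, at 1.48, 1.46 and 1.25. The means of COL1A1 (1.07) and COL5A2 (1.11) also passed it, with libraries on both sides. COL12A1, COL6A1, COL5A1 and COL28A1 lay below 0 (means -0.40, -0.79, -0.31 and -0.80). With IL-8, the means of COL4A4 (1.19) and COL4A5 (1.08) passed 1, with libraries on both sides, and COL28A1 lay below 0 (mean -0.83). In TMM-scaled CPM, COL4A4 in these Cal27 libraries (2.11 to 2.35) was below HN4 with IL-8 (4.13 to 4.53) and HN4 labelled vector (4.34 to 6.41). COL6A3 (0.399 to 0.641) overlapped the same HN4 groups (0.502 to 0.918 and 0.408 to 0.827). HN4 labelled ACLY held 0.752 to 1.15 of COL4A4 and 0.865 to 1.51 of COL6A3.

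**Figure D4:**
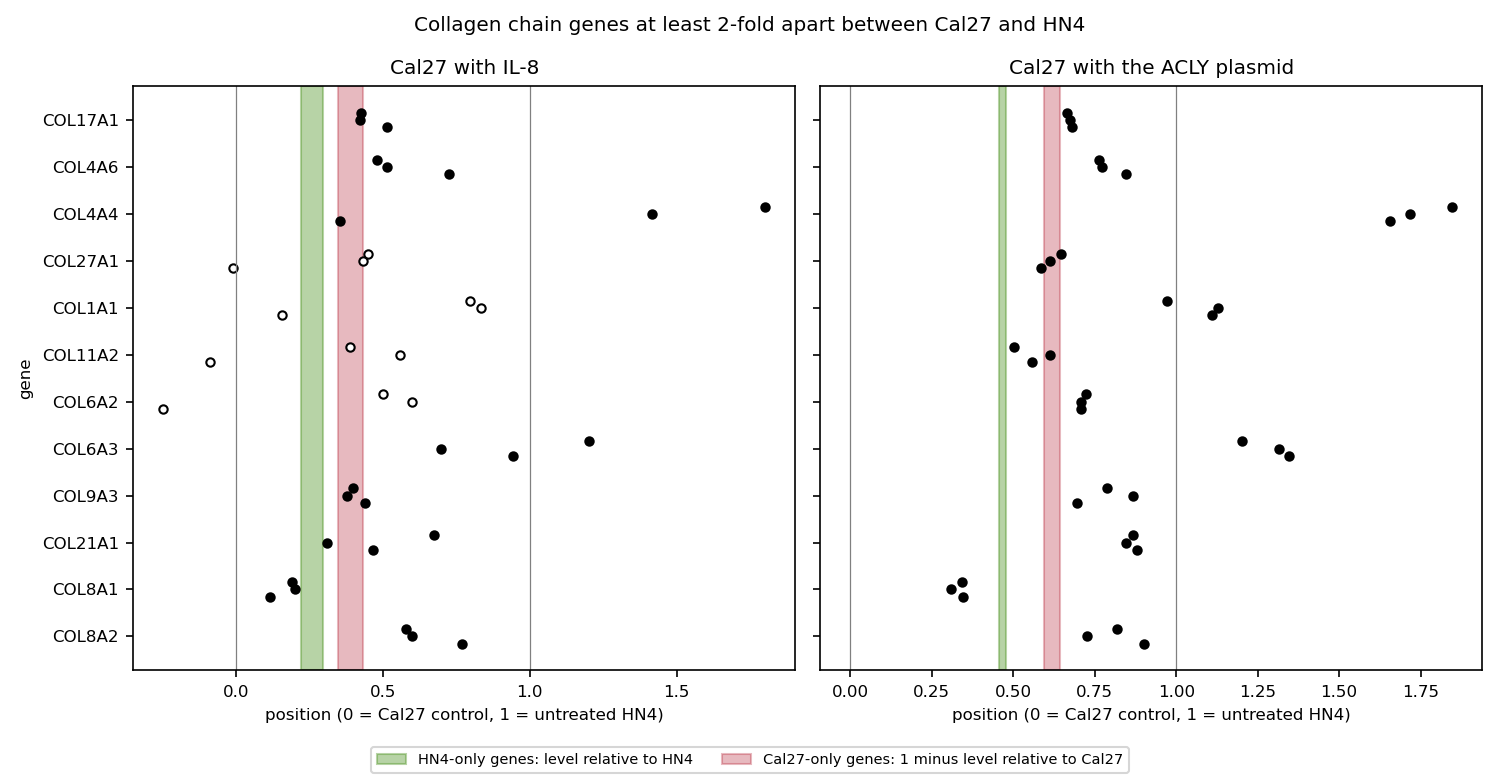
Position of treated Cal27 libraries (points, 3 per gene; filled where the gene was called) between the Cal27 control of the other experiment (0) and untreated HN4 (1) on the x axis, for 12 collagen genes at least 2-fold apart between these groups (y axis), with IL-8 on the left and the ACLY plasmid on the right. The green band spans the libraries' median level of HN4-only genes relative to HN4, and the red band 1 minus that of Cal27-only genes; COL8A1 lies below the green band in both panels and COL17A1 above the red one in the right panel.

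Genes that act on collagen were read from lists of fixed membership, which were chosen with earlier results of these data known. The counts stand beside 63.2% of all genes called in Cal27 and 51.6% in HN6 with the ACLY plasmid, 38.1% in HN4 labelled ACLY, and 39.4% in Cal27, 15.4% in HN6 and 14% in HN4 with IL-8. Of 17 genes for modification and secretion, 15 were tested. In Cal27, 6 rose and 7 fell with the ACLY plasmid, where 34.2% of all genes were called higher and 29% lower, led by PLOD2, a lysyl hydroxylase (-1.38, adjusted p = 3.71e-20), PLOD3 (1.24), the prolyl hydroxylase subunit P4HA1 (-1.11, adjusted p = 8.33e-19) and P3H4 (1.68). P4HA1 fell to 89.8 ± 2.54 CPM in Cal27 with the ACLY plasmid, against 194 ± 12.3 CPM with vector, and rose in HN6, at 199.8 ± 1.79 CPM against 69.7 ± 4.41 CPM (SD, n = 3 each; log2 1.52, adjusted p = 7.29e-22). In HN6 6 genes rose and 5 fell, PLOD2 (0.95) and P4HA2 (1.02) among those that rose. HN4 labelled ACLY gave 8 higher and 4 lower. With IL-8 the counts were 5 higher and 5 lower in Cal27, 4 and 0 in HN6, and 1 and 4 in HN4. SERPINH1, the collagen chaperone, changed with the ACLY plasmid by 0.35, adjusted p = 1.37e-07 in Cal27 and -0.25, adjusted p = 0.000103 in HN6, and P4HB, the shared subunit of prolyl hydroxylase, by 0.33, adjusted p = 4.83e-08 in HN6. P4HB was not called in Cal27 (-0.04, adjusted p = 0.489), and neither gene was called with IL-8 in any line.

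Of 15 genes for processing and cross-linking, 13 were tested. With the ACLY plasmid 8 fell and 2 rose in Cal27, where 29% of all genes were called lower and 34.2% higher. The list median was -0.77 on the log2 scale, beside 0.027 over all genes. LOX, a lysyl oxidase that cross-links fibrils, stood at 14.2 ± 1.81 CPM in Cal27 with the ACLY plasmid and 77 ± 4.72 CPM with vector (-2.44, adjusted p = 9.2e-22), and at 10.3 ± 0.718 CPM in HN6 with the plasmid and 2.66 ± 0.454 CPM with vector (1.95, adjusted p = 2.92e-14). Its relatives LOXL2 (-1.55) and LOXL4 (-2.38) also fell in Cal27. With IL-8, 5 fell and 1 rose in Cal27, where LOX changed by -1.20, adjusted p = 2.26e-05, 2 rose and 1 fell in HN6, where LOX changed by 0.94, adjusted p = 0.0117, and 2 fell in HN4. In HN6 with the ACLY plasmid 4 rose and 2 fell, BMP1, which trims procollagen, among those that rose (0.63). HN4 labelled ACLY gave 4 higher and 1 lower.

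Of 7 collagenases and gelatinases, 6 were tested. MMP13 fell in Cal27 with the ACLY plasmid (-3.30, adjusted p = 7.18e-18) and with IL-8 (-1.33, adjusted p = 1.41e-05) and rose in HN6 with the plasmid (1.30, adjusted p = 2.92e-06); in all, 4 of the list fell in Cal27 with the plasmid and 3 with IL-8, and none rose. In HN6 4 rose and 1 fell with the plasmid, and 2 rose with IL-8, MMP2 among them (1.15 and 0.50). HN4 with IL-8 had 1 higher and 1 lower, MMP1 (2.30) and MMP2 (-0.53), and HN4 labelled ACLY 3 higher and 1 lower, MMP1 being the lower one (-2.19).

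Of 10 collagen receptors, 7 were tested with IL-8 and 8 in the plasmid experiment. DDR1, a receptor tyrosine kinase for collagen, fell with IL-8 in Cal27 (-0.45, adjusted p = 5.86e-05), HN6 (-0.35, adjusted p = 0.00171) and HN4 (-0.30, adjusted p = 0.00645); in all, 1, 2 and 2 receptors fell and 0 rose. ITGA2, the integrin subunit that binds collagen, rose with the ACLY plasmid in Cal27 (0.98, adjusted p = 3.73e-17) and HN6 (0.88, adjusted p = 1.16e-15), where 2 and 5 receptors rose and 2 and 1 fell. Its partner ITGB1 rose in Cal27 with the plasmid (0.53, adjusted p = 3.33e-11) and in HN6 (0.16, adjusted p = 0.0066). HN4 labelled ACLY had 3 receptors higher and 0 lower.

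Of 14 basement membrane partners, 13 were tested. PXDN, the peroxidase that cross-links type IV collagen, and LAMB1, a laminin chain, led the list in Cal27. PXDN stood at 48 ± 4.31 CPM in Cal27 with IL-8 and 2.52 ± 0.616 CPM untreated (4.25, adjusted p = 2.7e-14), and at 82.3 ± 1.99 CPM with the ACLY plasmid and 2.09 ± 0.621 CPM with vector (5.29, adjusted p = 1.86e-30). Untreated HN4 held 163 ± 3.41 CPM and untreated HN6 241 ± 5.94 CPM, and treated Cal27 lay between the Cal27 controls and both of these lines. HN4-only genes stood at 0.268 with IL-8 and 0.465 with the ACLY plasmid of their HN4 level in the treated Cal27 libraries. Their part in the PXDN result was not tested. With the ACLY plasmid 5 rose and 6 fell in Cal27, 3 rose and 5 fell in HN6, and 6 were higher and 1 lower in HN4 labelled ACLY. With IL-8 the counts were 4 higher and 5 lower in Cal27, 5 and 2 in HN6, and 1 and 2 in HN4. HSPG2, the heparan sulfate proteoglycan perlecan, fell in Cal27 with IL-8 (-0.74) and with the plasmid (-1.21) and rose in HN6 (0.47 and 0.22).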

How the data were processed

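RNA-seq of poly-A RNA was read as whole-number counts per gene, deposited by the authors for 36 libraries in 1 table. CASAVA, the aligner HISAT2 2.0.5, the counter featureCounts 1.5.0-p3, DESeq2 and the build hg38 are named for this, per the submitters' processing notes. Strandedness, annotation release and the handling of multi-mapping reads are not given in the sources used here, and counts of overlapping or antisense genes are uncertain. Gene positions, names and biotypes are those of the GENCODE 29 annotation or of the deposited table.

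The 18 libraries of each experiment were fitted together with edgeR 4.0.16 (limma 3.58.1, R 4.3.3): genes kept by filterByExpr (minimum count 10, minimum total 15), TMM scaling, 1 mean per group, the quasi-likelihood test, and Benjamini-Hochberg adjustment over all genes tested with a threshold of 0.05. Levels are CPM after TMM scaling within the 18 libraries of each experiment, so levels of the 2 experiments rest on separate scalings. Shares and positions between lines use library totals. CPM per kb divides by summed exon length. Interaction terms tested whether responses differ. Tables were handled with Python 3.11.15 (pandas 2.3.3, numpy 2.4.6, scipy 1.17.1). The fit was tested on simulated data.

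Libraries of 1 group differed beyond sampling noise in all 36 replicate pairs (chi-square over degrees of freedom 1.99 to 107), so each was taken as a separate library. Same-numbered libraries did not deviate together (correlation of deviations -0.15 to 0.14), and the labels do not say that a number marks a shared batch, so numbers were not taken as pairs. Intervals and floors cover counting error only.

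The alternatives tried were DESeq2 1.42.0, its size factors within edgeR, scaling by library size alone or by upper quartile, no low-count filter or a mean of at least 5 CPM, a 2-fold limit, a replicate block, fits of only the groups compared or of all 36 libraries, and leaving out each library. The collagen genes and the lists (modification and secretion, processing and cross-linking, receptors, collagenases, basement membrane partners, and markers of squamous, fibroblast, endothelial, leukocyte and cartilage or muscle cells) were chosen with earlier results of these data known. Values are given for collagen genes with a group mean of at least 1 CPM that were called with at least a 2-fold change in 1 of the 10 comparisons, the others by mean or range, and those under 1 CPM in every group by reads; from each list up to 4 called genes per comparison with the smallest adjusted p could be named, and SERPINH1, P4HB and ITGB1 in any case. COL24A1 is given by reads, and library values that are not printed are in the heat map.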

Additional observations from a re-analysis of the deposited data

Results flagged for a closer look

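Several collagen genes responded in opposite directions in different lines, with each response past the threshold and the difference tested by an interaction term in edgeR's quasi-likelihood fit. With IL-8, COL17A1 fell in Cal27 (-0.74 on the log2 scale) and HN6 (-0.59) and rose in HN4 (0.72), and the lines differed with an adjusted p of 2.79e-09. COL8A2 fell in Cal27 with IL-8 (-0.92) and rose in HN6 (1.21). Its adjusted p of 0.000935 is for a difference among all 3 lines, HN4 included, and not for Cal27 against HN6 alone. The HN6 rise was not called without replicate 2 of untreated HN6 (adjusted p = 0.0706).

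With the ACLY plasmid, 9 genes moved in opposite directions in Cal27 and HN6. COL1A1 changed by -1.51 in Cal27 and 1.61 in HN6 (adjusted p = 2.35e-13 for the difference), and COL28A1 by -0.57 and 1.67 (6.51e-07). COL6A2 changed by -1.38 in Cal27 and 0.44 in HN6 (2.2e-16), and COL6A1 by -0.28 and 0.74 (2.91e-11). COL4A6 changed by -1.49 in Cal27 and 0.26 in HN6 (5.28e-14), and COL4A5 by -0.75 and 0.65 (2.95e-13). COL5A1 changed by -0.22 in Cal27 and 0.82 in HN6 (5.16e-10), and COL12A1 by -0.28 and 0.20 (8.96e-06). COL4A2 alone of the 9 was higher in Cal27 (0.23) and lower in HN6 (-0.18), with an adjusted p of 0.000162. The Cal27 changes of COL6A1 and COL12A1 and the HN6 change of COL12A1 were not called in the fit of all 36 libraries (adjusted p = 0.132, 0.112 and 0.269). Calls of COL4A2 in both lines were lost under other scalings, and those of COL4A6 and COL12A1 in HN6 and of COL5A1 in Cal27 without 1 library. The treated Cal27 libraries carried HN4-only genes at 0.268 (IL-8) and 0.465 (ACLY plasmid) of their HN4 level, and their part in these differences was not tested.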

How the results depend on the processing

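Of the called differences of single collagen genes, 159 were put through the alternatives. Among these 159, 128 stayed past the threshold under every alternative run, 31 were lost under at least 1, and none of 4242 recomputed values changed sign. Some low-count calls were left out, such as those of COL24A1 and that of COL4A3 in HN6 with IL-8. The 2-fold limit was applied to the counts alone. With DESeq2 1 call was lost, with DESeq2 size factors 0, with library-size or upper-quartile scaling 6 each, without a filter 4 and in the fit of all 36 libraries 10. The cause was not tested. Counts per comparison held within 1.5 times under these, with exceptions. A 2-fold limit left 5 collagen genes in Cal27, 2 in HN6 and 3 in HN4 with IL-8, 12 in Cal27, 4 in HN6 and 5 in HN4 labelled ACLY, and 13 between untreated HN6 and HN4. A mean of at least 5 CPM, which tests fewer genes, left 6 in Cal27 and 2 in HN4 with IL-8, 12 in Cal27 with the ACLY plasmid, 7 in HN4 labelled ACLY, 14 between untreated Cal27 and HN6, 13 between untreated Cal27 and HN4 and 15 between the vector groups. Fits of only the groups compared called 11 in HN4 with IL-8, where 41.8% of all genes were called, and 9 in HN4 labelled ACLY, where 36.2% were. Over protein-coding counts alone the collagen shares were 0.236% in Cal27, 0.229% in HN6 and 0.166% in HN4 with IL-8, 0.190% in Cal27 and 0.259% in HN6 with the ACLY plasmid, and 0.174% in HN4 labelled vector.

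Leaving out each library in turn gave 10 to 16 called genes in Cal27, 4 to 14 in HN6 and 4 to 9 in HN4 with IL-8, 20 to 23 in Cal27, 14 to 20 in HN6 and 10 to 15 in HN4 labelled ACLY. The counts were 21 to 26 between untreated Cal27 and HN6, 22 to 27 between untreated Cal27 and HN4, 20 to 23 between untreated HN6 and HN4 and 22 to 24 between the vector groups. The response differed among lines for 10 to 20 genes with IL-8 and 24 to 25 in the plasmid experiment, and between Cal27 and HN6 for 6 to 16 and 20 to 24. In HN6 with IL-8, 4 were called without replicate 2 of untreated HN6, 5 without replicate 3 of untreated HN6 or replicate 1 or 2 of HN6 with IL-8, and 14 without replicate 3 of Cal27 with IL-8.

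With the replicate number as a block, though the libraries share only a number, the counts with IL-8 were 13 in Cal27, 9 in HN6 and 6 in HN4, and 22 in Cal27, 17 in HN6 and 14 in HN4 labelled ACLY; 1 call was lost, COL4A3 in HN4 labelled ACLY. The comparisons across experiments and the interaction terms between Cal27 and HN6 were chosen after seeing the data. Genes under about 0.2 CPM lie near the floor of these depths.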
